A study of Drosophila mauritiana and Drosophila melanogaster and Drosophila simulans with 12 samples.

Results

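The genes described here are 10 regulators of sex determination and dosage compensation in *Drosophila*, chosen by name: *Sxl*, *tra*, *tra2*, *dsx* and *fru* of the splicing cascade that sets the sex of the soma, and *msl-1*, *msl-2*, *msl-3*, *mle* and *mof* of the male-specific lethal (MSL) complex. All 10 have a row among the 13311 genes that were counted in each of the species compared, and all 10 passed the filter on low counts in every comparison. In *D. melanogaster*, the dose of the X chromosome switches on *Sxl* in females. The SXL protein directs the splicing of *tra*, TRA acts with TRA2 to set the splicing of *dsx* and of part of the *fru* transcripts, and SXL blocks the production of MSL2. The MSL complex is therefore assembled only in males, where it raises transcription of the single X chromosome, although its other subunits are made in both sexes. The counts measured how much RNA of each gene was present, and not its splicing or its protein.

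The RNA came from eye-antennal imaginal discs, the larval tissue that forms the eye, the antenna and much of the head, of female larvae of the last instar collected 120 h after egg laying and kept at 25 °C, with 40 to 50 discs and 500 ng of RNA per library. *D. melanogaster* strain OreR (replicates A to C) was set against *D. mauritiana* strain TAM16 (A to C), both read as 50 bp single-end reads, and *D. simulans* strain YVF (A to C) against TAM16 (D to F), both read as 100 bp paired-end reads that the authors split to 50 bp before mapping. The 12 libraries thus form 4 groups of 3, each species is represented by 1 strain, and no male sample is part of the series used here. The paper gives YVF as *yellow vermillion forked*, so these markers and the species cannot be told apart in *D. simulans*. Nothing in the labels says that replicates came from separate crosses or days, so the p-values measure the spread between these libraries.

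Each gene was counted on the protein-coding part that could be aligned reciprocally between the species, and this part differs between the genes. The models of *Sxl*, *tra2*, *msl-1*, *msl-2*, *msl-3*, *mle* and *mof* cover the whole coding sequence or all but 1 base of the *D. melanogaster* gene, from 794 nt in *tra2* to 3882 nt in *mle*. The model of *tra* kept 363 of 594 nt, that of *dsx* 1092 of 1719 nt and that of *fru* 2005 of 2883 nt. *fru* was the only member whose models differed by more than the 49 bp that the study allowed, with 2005 nt in *D. melanogaster* and 2011 nt in *D. simulans*, against 2104 nt in *D. mauritiana*.

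The kept parts set which RNA forms a count can tell apart. All 7 coding isoforms of *dsx* in the Ensembl annotation of *D. melanogaster* hold the whole kept stretch, which ends at position 1092 of the coding sequence, before the exons that differ between the female and the male form. For *tra*, the isoform that encodes the full protein, made in females, holds the kept stretch in its coding part, and the exons of the other isoform, whose reading frame stops early, hold 100% of it as well. For *Sxl*, the coding part of 2 of 25 isoforms and the exons of 7 carry at least 95% of the model, and for *fru* 7 of 15 isoforms do by either measure. The regulated intron of *msl-2* lies in its 5′ untranslated region, which no model includes. Female and male forms were therefore summed for *tra*, *dsx* and *msl-2*. For *Sxl* and *fru*, the exons of some isoforms hold as little as 41.2% and 42.5% of the model. Counts and levels per length of *Sxl* and *fru* thus also depend on the mix of isoforms, which was not measured.

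On the published *D. mauritiana* genome, *Sxl* was aligned at X:6426105-6439522 in 8 exons and *mof* at X:5304960-5307443 in 1 exon. *tra* lies at 3L:15922521-15923131 in 2 exons and *msl-3* at 3L:6794199-6796086 in 6 exons. *tra2* lies at 2R:8764651-8766316 in 5 exons and *mle* at 2R:688764-693877 in 5 exons. *dsx* was found at 3R:3576562-3577657 in 1 exon and *fru* at 3R:6862908-6879351 in 7 exons. *msl-1* lies at 2L:17923067-17926255 in 2 exons and *msl-2* at 2L:3297739-3300126 in 3 exons. In the *D. melanogaster* annotation, none of the 10 coding models overlaps the coding sequence of another gene.

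The paired-end libraries held 121468882 to 162437570 counts and the single-end libraries 17170747 to 34063962. The members had 2817 to 56505 counts per gene and library in the paired-end libraries, against 103 to 6892 in the single-end ones. All 10 eye disc markers and all 6 antennal disc markers examined were present, with summed levels of 1359 to 1738 and 515 to 688 CPM (counts relative to the TMM-scaled library total) over the 12 libraries, and those of the 5 hemocyte markers ran from 215 to 1205 CPM. None of the 10 Y-linked genes listed was matched to a row, so the labelled sex was not checked here. Fat body markers were uneven: the 6 of them summed to 162 CPM in *D. melanogaster* B, against 5489 in A and 4810 in C of that species. In *D. melanogaster* B and *D. mauritiana* A, 2.77% and 3.48% of the counts came from the mitochondrial gene *mt:CoI*, the largest shares that a single gene took in any library. Spearman's rho between libraries of a group was 0.958 to 0.996, with the lowest value between *D. mauritiana* A and C.

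Levels per kilobase of model were highest for the RNA-binding proteins and splicing factors at the top of the cascade. *Sxl*, *tra* and *tra2* held the first 3 places in all 4 groups, at mean RPKM (CPM per kilobase of each species' own model) that lay above 80.0% to 93.9% of all genes. *Sxl* averaged 91.8 ± 7.24 RPKM in *D. melanogaster* and 95.5 ± 20.8 in the single-end libraries of *D. mauritiana*, and 159 ± 9.49 in *D. simulans* and 154 ± 8.58 in the paired-end libraries of *D. mauritiana* (SD, n = 3 each). *tra* averaged 96.2 ± 21.0 and 175 ± 36.1 RPKM in the single-end groups and 99.1 ± 5.92 and 85.2 ± 5.45 in the paired-end groups, in the same order of species. The mean of *tra* stood before that of *Sxl* in the single-end groups and after it in the paired-end groups. In *D. melanogaster* the genes overlapped, and *tra* lay above *Sxl* in replicate B (120 against 87.2 RPKM) and below it in A (83.3 against 100.1) and C (84.9 against 88.0).

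**Figure D1:**
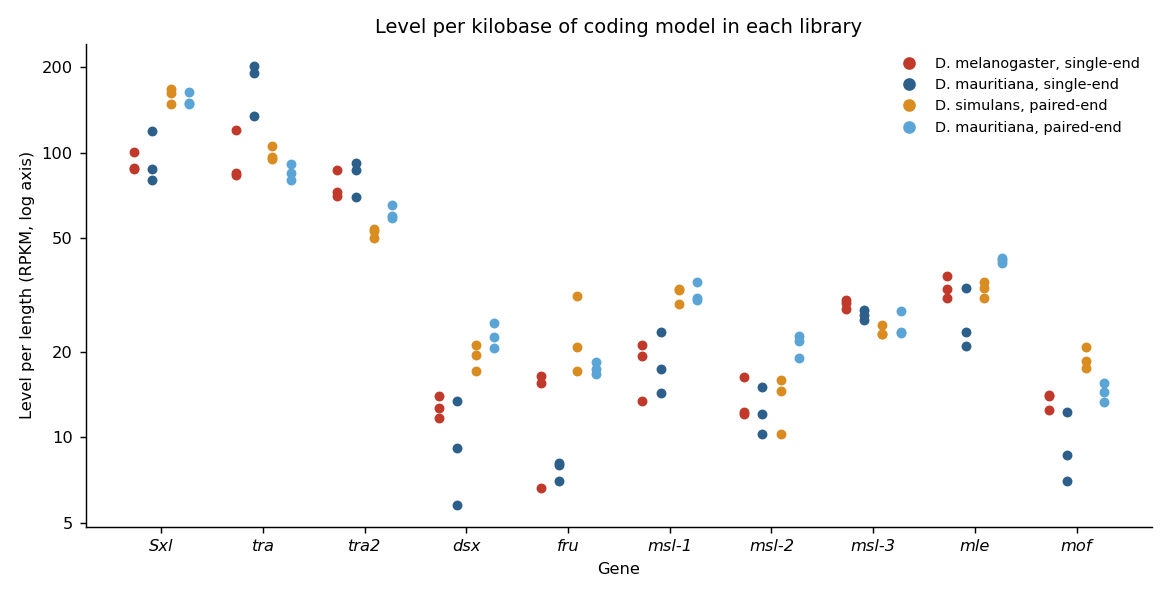
Level per kilobase of coding model (RPKM, log axis) of the 10 genes in each of the 12 libraries, each point being 1 library. *Sxl*, *tra* and *tra2* lie above the other 7 genes in every library. *tra* lies above *Sxl* in the 3 single-end libraries of *D. mauritiana* and in *D. melanogaster* B, and below it in the other libraries.

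Among the MSL genes, the RNA helicase gene *mle* had the highest level per length in 3 groups, with 33.6 ± 3.11 RPKM in *D. melanogaster*, 33.2 ± 2.17 in *D. simulans* and 41.8 ± 0.719 in the paired-end libraries of *D. mauritiana*. In the single-end libraries of *D. mauritiana* it reached 26.0 ± 6.61 RPKM, and *msl-3*, which encodes a chromodomain protein, averaged 27.0, with overlapping libraries. *msl-1*, the scaffold of the complex, followed *mle* without overlap in the paired-end libraries of *D. mauritiana* (32.1 ± 2.71 RPKM), while the libraries of the pair overlapped in *D. simulans* (31.9 ± 2.19). *msl-2*, whose protein is the subunit restricted to males, was present in all 12 female libraries at 10.2 to 22.7 RPKM, which placed its group means above 52.5% to 59.9% of all genes. The histone acetyltransferase gene *mof* averaged 9.29 to 18.9 RPKM over the groups.

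The transcription factor genes at the end of the cascade were the lowest of it. *dsx* averaged 12.8 ± 1.15 RPKM in *D. melanogaster* and 9.46 ± 3.82 in the single-end libraries of *D. mauritiana*, and 19.2 ± 1.98 in *D. simulans* and 22.7 ± 2.33 in the paired-end libraries of *D. mauritiana*. *fru* averaged 12.9 ± 5.44 and 7.70 ± 0.608 RPKM, and 23.1 ± 7.46 and 17.5 ± 0.846 RPKM, in the same order of groups. In the single-end groups the levels of *mof*, *dsx* and *fru* could not be put in order, since neighbouring genes overlapped between libraries.

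The comparison of *D. melanogaster* with *D. mauritiana* asked which members are expressed at different levels in the discs of these species. *tra* was lower in *D. melanogaster*, by 0.87 on the log2 scale, and was the member that passed the test; the other 9 were not called, which does not show that they were alike. It was called by edgeR's quasi-likelihood test at an adjusted p-value (Benjamini-Hochberg over all 9767 genes tested) below 0.05, a threshold that 18.2% of all genes tested passed. The 10 members thus gave 1 call, 0 higher (8.06% of all genes) and 1 lower (10.1%), and their median log2-fold change was 0.13, beside 0.0092 for all genes.

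The *tra* gene encodes the splicing regulator that carries the female decision of *Sxl* to *dsx* and *fru*. Its normalised level was 30.2, 43.7 and 30.8 CPM in *D. melanogaster* A to C, against 73.1, 69.2 and 48.7 CPM in *D. mauritiana* A to C. Every *D. melanogaster* library lay below every *D. mauritiana* library, and the nearest of them were *D. melanogaster* B and *D. mauritiana* C. These libraries also stood apart in the balance of long and short models: the median log2 deviation of models over 2000 nt minus that of models under 500 nt was 0.38, -0.36 and 0.16 in *D. melanogaster* A to C, and -0.49, -0.25 and 0.58 in *D. mauritiana* A to C. Summed fat body markers were at 5489, 162 and 4810 CPM in *D. melanogaster*, against 683, 976 and 2176 CPM in *D. mauritiana*, so that within each species *tra* was lowest where these were highest. Hemocyte markers summed to 1205, 215 and 1050 CPM in *D. melanogaster* A to C, and to 451, 254 and 412 CPM in *D. mauritiana* A to C. Muscle markers summed to 551, 173 and 496 CPM, and to 217, 314 and 30.8 CPM, in the same order. The part of the length balance or of any of these markers in the *tra* difference was not tested. The fold difference was 1.82 (log2-fold change -0.87, SE 0.22, 95% interval -1.38 to -0.35, adjusted p = 0.0331). Between the *D. mauritiana* sets of the same strain, *tra* was lower by 1.06 on the log2 scale in the paired-end than in the single-end libraries.

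The call for *tra* depended on the coding model and on single libraries. With the direct re-annotation, where *D. melanogaster* reads were counted on 594 nt and *D. mauritiana* reads on 363 nt, the log2-fold change was -0.32 (adjusted p = 0.421). The published annotation, with 591 nt in *D. melanogaster* and 570 nt in *D. mauritiana*, gave -0.92 (adjusted p = 0.0631), and -0.97 (adjusted p = 0.0538) with the length as an offset. In *D. melanogaster*, the stretch of *tra* that the reciprocal model left out held 1299, 1732 and 1576 reads per kilobase in A to C, against 2421, 1961 and 2160 on the stretch it kept. The value stayed between -1.06 and -0.77 when each library was left out in turn. Its adjusted p exceeded 0.05 without *D. mauritiana* A (0.0803), *D. mauritiana* B (0.0967), *D. melanogaster* A (0.119) or *D. melanogaster* C (0.134). Without *D. melanogaster* B and *D. mauritiana* A together, the libraries with the most *mt:CoI*, it was -0.95 (adjusted p = 0.0421).

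**Figure D2:**
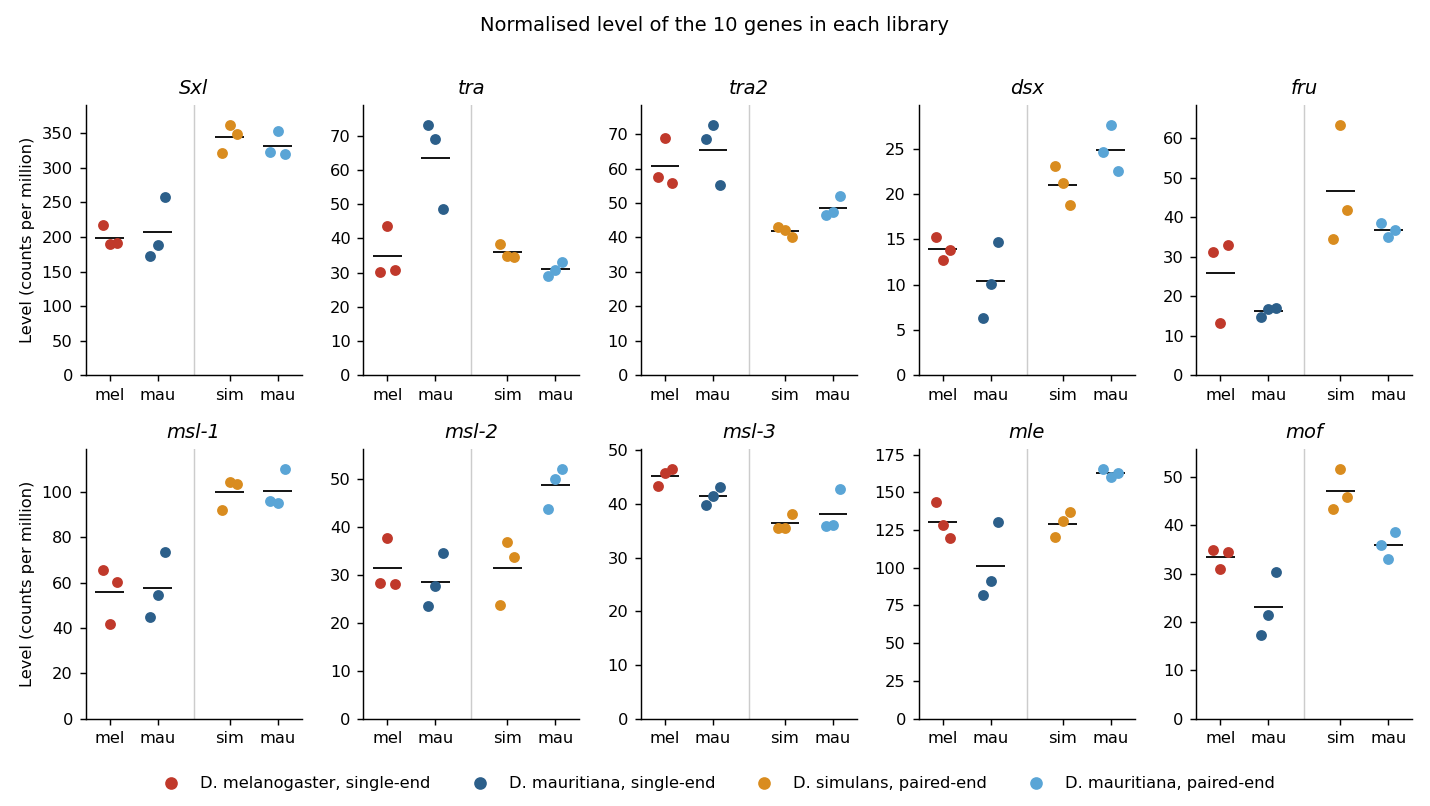
Normalised level (CPM) of the 10 genes in each library, with the mean of the 3 libraries of a group as a line. In the single-end pair *tra* lies at 30.2 to 43.7 CPM in *D. melanogaster* and at 48.7 to 73.1 CPM in *D. mauritiana*, and in the paired-end pair *mle* lies at 120 to 137 CPM in *D. simulans* and at 160 to 166 CPM in *D. mauritiana*.

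The acetyltransferase gene *mof* and the chromodomain gene *msl-3* had higher levels in every *D. melanogaster* library than in any *D. mauritiana* library without passing the test. *mof* stood at 34.9, 31.0 and 34.6 CPM in *D. melanogaster*, against 17.4, 21.5 and 30.4 CPM in *D. mauritiana* (log2-fold change 0.53, SE 0.22, adjusted p = 0.146). *msl-3* stood at 43.3, 45.7 and 46.6 CPM in *D. melanogaster*, against 39.7, 41.5 and 43.2 CPM in *D. mauritiana* (log2-fold change 0.12, SE 0.12, adjusted p = 0.555). With *tra*, these made 3 of 10 members whose groups of libraries did not overlap, as was the case for 37.6% of all genes tested.

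Of the remaining members, *fru* had the largest estimate, 0.67 (SE 0.33, adjusted p = 0.215). Its levels were 31.2, 13.3 and 33.0 CPM in *D. melanogaster*, against 14.7, 16.8 and 17.1 CPM in *D. mauritiana*. *D. melanogaster* B fell below all libraries of *D. mauritiana*, and without it the log2-fold change of *fru* was 0.99 (adjusted p = 0.00896). Within *D. melanogaster*, B also had the lowest sums of fat body, hemocyte and muscle markers (162, 215 and 173 CPM). The models of *fru* differ by 99 nt between the species, and the part of other tissue or of library quality in these values was not tested. *dsx*, with 15.2, 12.7 and 13.8 CPM in *D. melanogaster* and 6.3, 10.1 and 14.7 CPM in *D. mauritiana*, had a log2-fold change of 0.42 (95% interval -0.30 to 1.14).

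*Sxl*, the switch gene itself, was at 217, 189 and 191 CPM in *D. melanogaster* and at 173, 189 and 258 CPM in *D. mauritiana*, and its log2-fold change of -0.05 had an interval of -0.48 to 0.37. The intervals of *tra2* (-0.48 to 0.26), *msl-1* (-0.60 to 0.52), *msl-2* (-0.34 to 0.60) and *mle* (-0.10 to 0.83) likewise included 0. *mle* was at 143, 129 and 119 CPM in *D. melanogaster* and at 81.8, 91.5 and 130 CPM in *D. mauritiana*, where replicate C stood apart. Without *D. mauritiana* C, 1818 of all 10001 genes were called, among them *mle* (0.58, adjusted p = 0.0325) and *mof* (0.78, adjusted p = 0.0235) as higher in *D. melanogaster*. *mle* and *mof* have models over 2000 nt. The *D. mauritiana* libraries that remain, A and B, are those in which long models were low relative to short ones (-0.49 and -0.25), a factor whose part was not tested.

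In the comparison of *D. simulans* with *D. mauritiana*, 3 of 10 members were called, all of them genes of the MSL complex. *msl-2* and *mle* were lower and *mof* was higher in *D. simulans*, while 0 of the 5 cascade genes passed the test in edgeR, where 2 had an unadjusted p under 0.05, and 1, *tra2*, passed in DESeq2. Of all 11121 genes tested, 25.1% were called, 12.1% as higher and 13.0% as lower. The median log2-fold change of the 10 members was -0.04, beside 0.0027 for all genes.

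*mle* encodes the helicase that remodels the roX RNAs of the complex and also acts outside dosage compensation. Its level was 120, 131 and 137 CPM in *D. simulans* A to C, against 166, 160 and 163 CPM in *D. mauritiana* D to F. The groups did not overlap, and the difference was 1.26-fold (log2-fold change -0.33, SE 0.06, 95% interval -0.49 to -0.18, adjusted p = 0.0104). Without *D. mauritiana* D it missed the threshold (-0.32, adjusted p = 0.056), and it passed without any other single library.

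*msl-2* encodes the RING finger protein that is limiting for the complex in males. Its level was 23.8, 36.8 and 33.7 CPM in *D. simulans*, against 43.8, 50.1 and 52.2 CPM in *D. mauritiana*. All *D. simulans* libraries were below all *D. mauritiana* libraries, with *D. simulans* A the lowest (log2-fold change -0.63, SE 0.16, adjusted p = 0.0293). The adjusted p was 0.0567 to 0.0734 when *D. mauritiana* D, E or F or *D. simulans* C was left out, with log2-fold changes of -0.70 to -0.58.

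*mof* encodes the acetyltransferase that MSL shares with the non-specific lethal (NSL) complex. Its level was 43.4, 51.7 and 45.9 CPM in *D. simulans*, against 35.9, 32.9 and 38.7 CPM in *D. mauritiana*. No library of a group reached into the range of the other (log2-fold change 0.39, SE 0.09, adjusted p = 0.0217). Without *D. mauritiana* D or E or *D. simulans* B or C, the adjusted p was 0.0612 to 0.0751 at log2-fold changes of 0.32 to 0.41. The models of *mof* have the same 2484 nt in all species, and those of *mle* have 3897 nt in both species of this pair. *msl-2* was counted on 2316 nt in *D. simulans* and 2304 nt in *D. mauritiana*.

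Muscle markers had positive median log2-fold changes in both species comparisons. All 4 muscle markers measured were called higher in *D. simulans*, with a median log2-fold change of 0.91 and summed levels of 1443 to 1734 CPM, against 585 to 907 CPM in *D. mauritiana*, and none was at 0. In *D. melanogaster* against *D. mauritiana* their median was 0.98, and 0 of the 4 were called. Their sums there were 173 to 551 CPM in *D. melanogaster* and 30.8 to 314 CPM in *D. mauritiana*. Fat body and hemocyte markers had medians of 1.62 and 0.73 in *D. melanogaster*, and of 0.49 and 0.29 in *D. simulans*, with 0 called. The part of such markers in the values of the members was not tested. In bulk RNA, fewer cells of a type and less RNA per cell cannot be told apart.

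**Figure D3:**
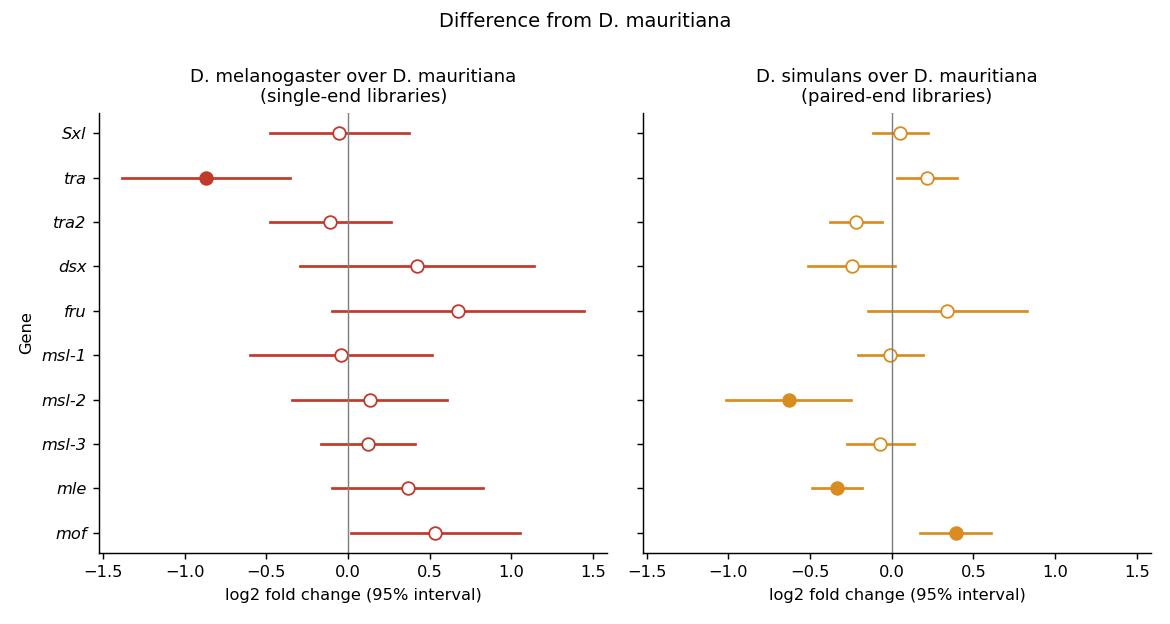
Log2-fold change of each gene, *D. melanogaster* over *D. mauritiana* (left) and *D. simulans* over *D. mauritiana* (right), with 95% intervals, where filled points passed an adjusted p of 0.05. *tra* at -0.87 is the filled point on the left, and *msl-2* at -0.63, *mle* at -0.33 and *mof* at 0.39 are those on the right.

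The cascade genes *tra* and *tra2* separated the libraries of this pair by small amounts without a call. *tra* was at 38.4, 35.0 and 34.5 CPM in *D. simulans*, against 29.0, 30.8 and 33.0 CPM in *D. mauritiana* (log2-fold change 0.22, adjusted p = 0.0869). *tra2*, which encodes the RNA-binding partner of TRA, was at 43.1, 42.1 and 40.1 CPM in *D. simulans*, against 46.5, 47.4 and 51.97 CPM in *D. mauritiana* (log2-fold change -0.22, adjusted p = 0.0544). *tra2* passed the threshold under 7 other settings, among them DESeq2 (-0.22, adjusted p = 0.0296) and the direct re-annotation (-0.22, adjusted p = 0.0443). With the called genes, 5 of 10 members had groups that did not overlap, beside 44.6% of all genes tested.

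The intervals of the other members were narrower here than in the single-end pair. That of *Sxl* ran from -0.12 to 0.22, that of *msl-1* from -0.21 to 0.19 and that of *msl-3* from -0.27 to 0.13. *Sxl* was at 322, 362 and 349 CPM in *D. simulans* and at 324, 354 and 320 CPM in *D. mauritiana*. *dsx*, at 23.1, 21.2 and 18.8 CPM in *D. simulans* and 24.6, 27.6 and 22.5 CPM in *D. mauritiana*, had a log2-fold change of -0.24 (adjusted p = 0.161). *fru* was at 34.4, 63.3 and 41.8 CPM in *D. simulans* and at 38.6, 35.1 and 36.7 CPM in *D. mauritiana*, so that *D. simulans* B alone lay far above the rest (log2-fold change 0.34, adjusted p = 0.272). In the direct re-annotation, whose *fru* models have 2606 nt in *D. simulans* and 2047 nt in *D. mauritiana*, the value was 0.77 (adjusted p = 0.0386).

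**Figure D4:**
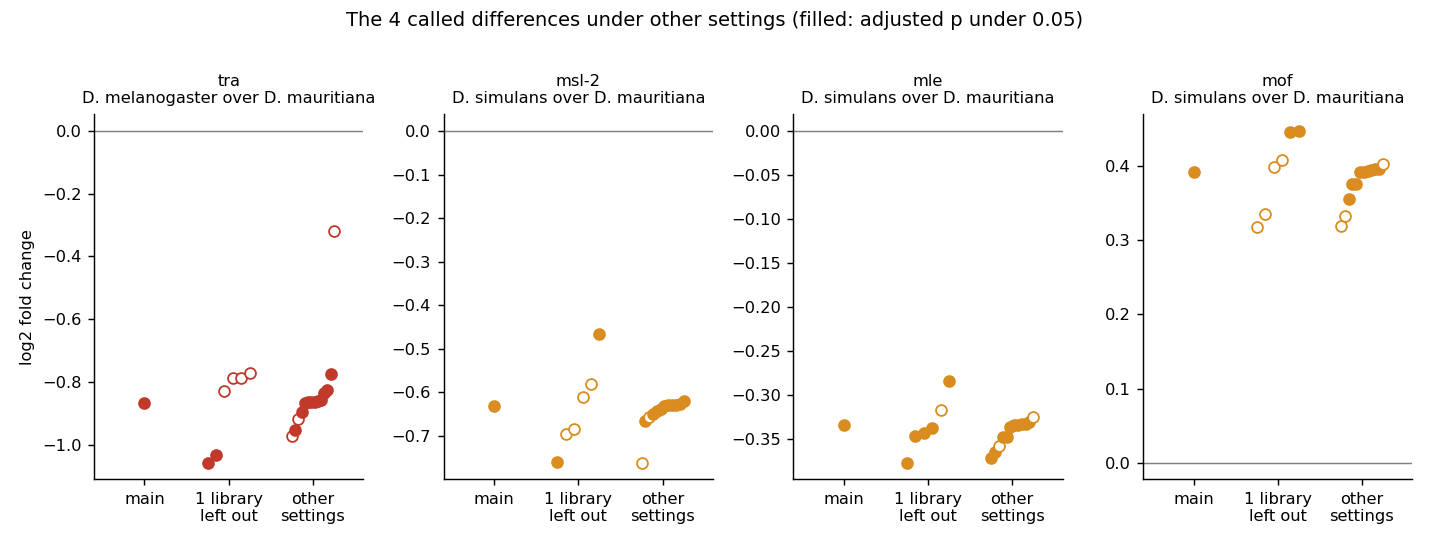
Log2-fold changes of the 4 called differences in the main fit, with each library left out, and under the other settings, where filled points passed an adjusted p of 0.05. No point changes sign, *tra* runs from -1.06 to -0.32, and open points appear for all 4 genes.

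Whether the difference from *D. mauritiana* was unlike in its relatives was tested in 1 fit over the 12 libraries. *tra* was the only member called, as were 14.5% of all 11287 genes tested (6.79% higher and 7.71% lower). Its difference was lower in *D. melanogaster* than in *D. simulans* by 1.09 on the log2 scale (SE 0.22, adjusted p = 0.0067), and the call held in all 12 fits that left out 1 library, with values from -1.26 to -1.01. The corresponding values were 0.69 for *mle* (adjusted p = 0.0662) and 0.75 for *msl-2* (adjusted p = 0.0932), and 0.13 for *mof* (adjusted p = 0.799). Without *D. mauritiana* C, *dsx* (0.98, adjusted p = 0.0301), *msl-2* (0.90, adjusted p = 0.0335) and *mle* (0.91, adjusted p = 0.00208) were called as well. That fit called 2110 of all 12064 genes, and it was the one of the 12 with the most members called. *D. melanogaster* and *D. simulans* were read in different ways here, so that this contrast also carries any difference in how the read types respond to a species' sequence.

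The *D. mauritiana* libraries of both sets came from the same strain, and the median log2-fold change of the members between them was 0.66. In the paired-end set against the single-end set, 9 of 10 members were called, 7 higher and 2 lower, while 48.1% of all genes were called (21.6% higher and 26.4% lower). *dsx* was higher by 1.23, *fru* by 1.16, *msl-1* by 0.78, *msl-2* by 0.74, *Sxl* and *mle* by 0.66 each and *mof* by 0.61 on the log2 scale, with adjusted p-values of 0.0035 to 0.0188. *tra* was lower by 1.06 (adjusted p = 0.0017) and *tra2* by 0.45 (adjusted p = 0.0078). *msl-3* did not pass (-0.14, adjusted p = 0.255).

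*tra*, with 363 nt in *D. mauritiana*, and *tra2*, with 791 nt, were the shortest members and were the ones that were lower. Over all genes, the median log2-fold change between the sets was -0.87 for models under 500 nt, -0.49 for 500 to 1000 nt, -0.06 for 1000 to 2000 nt and 0.48 for models over 2000 nt. The 6 fat body markers were all called lower in the paired-end set, with a median of -4.69 and summed levels of 39.5 to 57.2 CPM, against 683 to 2176 CPM in the single-end set. Read type and library set cannot be told apart between these groups. Without *D. mauritiana* A, *D. mauritiana* B or *D. mauritiana* F, *mof* missed the threshold (adjusted p = 0.05 to 0.0708). The same length classes had medians of -0.06 to 0.06 in *D. melanogaster* against *D. mauritiana*, and of 0.13 for models under 500 nt and -0.06 for models over 2000 nt in *D. simulans* against *D. mauritiana*. The models of *msl-2* and *mle*, which were lower in *D. simulans*, and of *mof*, which was higher, are all over 2000 nt.

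**Figure D5:**
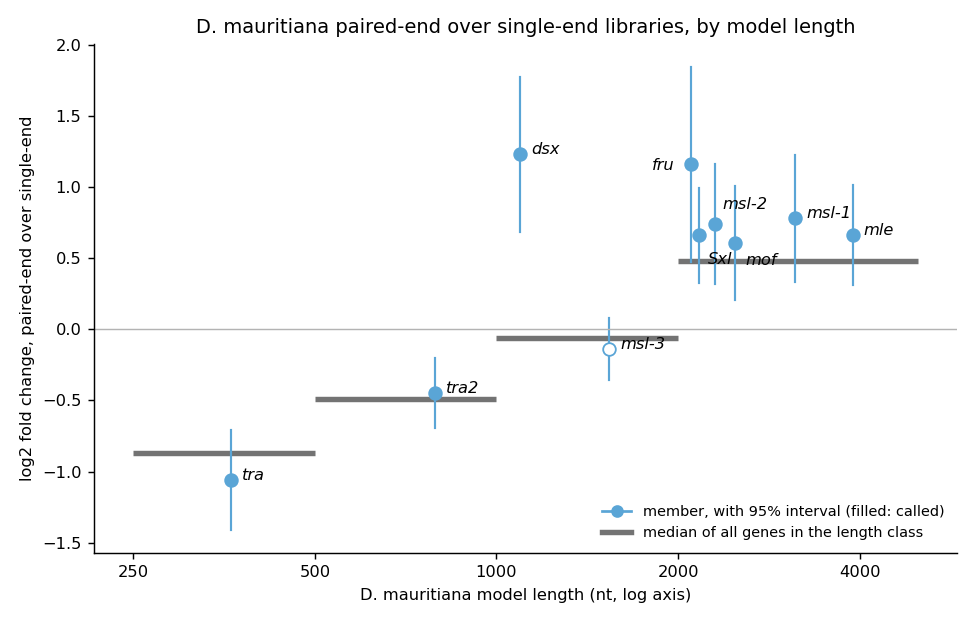
Log2-fold change of each gene between the paired-end and single-end libraries of *D. mauritiana* against the length of its model (log axis), with 95% intervals, and the median of all genes of each length class as grey bars. *tra* at -1.06 and *tra2* at -0.45 lie near the bars of the short classes, and *dsx* at 1.23 lies above the bar of its class at -0.06.

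The choice of annotation decided whether *Sxl* could be measured at all. On the published *D. mauritiana* model of *Sxl*, which has 1098 nt, all 3 single-end libraries of *D. mauritiana* had 0 counts, while the *D. melanogaster* model of 2166 nt had 6275, 3074 and 4812. On the reciprocal model of 2163 nt, the same *D. mauritiana* libraries had 2810, 6409 and 6892 counts. Among the 6439 genes of the published table with at least 100 counts in each *D. melanogaster* library, 21 (0.326%) were at 0 in every *D. mauritiana* library. By gene identifier, *Sxl* and *dsx* had no row in the published table of *D. simulans* and *D. mauritiana*, and *fru* had none in either published table. For *dsx*, the published *D. mauritiana* model of 1653 nt gave 201, 571 and 582 counts, against 103, 342 and 393 on the reciprocal model of 1096 nt, and the log2-fold change of *D. melanogaster* over *D. mauritiana* was 0.19 on the published models (adjusted p = 0.609) and 0.42 on the reciprocal models (adjusted p = 0.406).

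Upstream of *Sxl*, 7 of the 9 listed genes of the X chromosome signal and of the *Sxl* promoter were tested. In *D. melanogaster* against *D. mauritiana* 0 of them were called, with a median log2-fold change of -0.11. In *D. simulans* 1 was called, as lower, with a median of -0.06. *upd1*, an X-linked signal element that encodes a JAK/STAT ligand, was lower in *D. simulans*, at 2.55, 2.56 and 2.51 CPM, against 4.29, 3.83 and 4.13 CPM in *D. mauritiana* (log2-fold change -0.69, adjusted p = 0.0206), and the call held in 3 of 6 fits that left out 1 library. *sisA*, another element that acts in the early embryo, was at 0.013 to 0.067 CPM in the group means and was not tested.

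Among 10 partners of SXL and of *Sxl* splicing, *snf*, which encodes a protein of the U1 and U2 small nuclear ribonucleoproteins, was called higher in *D. melanogaster*. Its level was 194, 247 and 202 CPM in *D. melanogaster*, against 136, 133 and 114.9 CPM in *D. mauritiana* (log2-fold change 0.75, adjusted p = 0.0148), a call that held in 4 of 6 such fits. The obligate partner of DSX, *ix*, had a log2-fold change of -0.63 in *D. melanogaster* (adjusted p = 0.155).

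Of the partners of the MSL complex, *Clamp*, the zinc finger protein that brings MSL to the X chromosome, *JIL-1*, *Set2* and *Nup153* were tested, with median log2-fold changes of 0.20 in *D. melanogaster* and 0.03 in *D. simulans*. In either comparison, 0 of these 4 were called. Of the 6 subunits of the NSL complex, which shares MOF, *Rcd5* was higher in *D. melanogaster*, at 126, 165 and 152 CPM, against 101, 97.5 and 79.5 CPM in *D. mauritiana* (log2-fold change 0.67, adjusted p = 0.0268, held in 2 of 6). The NSL list thus gave 1 call in *D. melanogaster* and 0 in *D. simulans*. These lists hold few genes, and their counts stand beside 18.2% and 25.1% of all genes called in these comparisons.

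The widest differences around *dsx* lay in a gene that its products regulate. *Yp3* encodes a yolk protein that DSX activates in the fat body of adult females. Its level in the discs was 0.48, 0.18 and 0.31 CPM in *D. melanogaster*, against 7.21, 6.95 and 5.50 CPM in *D. mauritiana*. In the paired-end libraries it was at 64.0, 45.5 and 69.3 CPM in *D. simulans*, against 2.16, 2.85 and 4.46 CPM in *D. mauritiana*. The log2-fold changes were -4.25 (adjusted p = 0.000864) and 4.24 (adjusted p = 0.000183), and both calls held in 6 of 6 fits that left out 1 library. The *D. melanogaster* values rest on 14, 3 and 8 counts. The other yolk protein genes, *Yp1* and *Yp2*, had group means of 0.09 to 1.28 CPM and were not called where tested.

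*bab2*, a transcription factor gene of the antenna and legs that DSX regulates in the abdomen, was lower in *D. simulans*, at 72.9, 69.4 and 73.9 CPM, against 93.7, 94.5 and 88.1 CPM in *D. mauritiana* (log2-fold change -0.35, adjusted p = 0.00596). It was not called in *D. melanogaster*. Of the genes that share the DM domain of DSX, *dmrt93B* was below 1 CPM in all group means, as was *dmrt11E* outside *D. simulans*. *dmrt99B* was lower in both relatives: it was at 1.62, 1.78 and 1.81 CPM in *D. melanogaster*, against 9.18, 13.7 and 10.7 CPM in *D. mauritiana*, and at 7.72, 5.25 and 5.88 CPM in *D. simulans*, against 13.3, 14.9 and 15.9 CPM in *D. mauritiana*. Its log2-fold changes were -2.69 (adjusted p = 0.000922) and -1.23 (adjusted p = 0.00289). *dmrt11E* was at 2.39, 2.46 and 2.62 CPM in *D. simulans*, against 0.23, 0.19 and 0.36 CPM in *D. mauritiana* (log2-fold change 3.23, adjusted p = 0.000555), on models of 1124 and 1118 nt.

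Germline genes, which would show gonadal tissue, gave 1 call. *stil* had 22, 9 and 13 counts in *D. melanogaster*, against 0, 0 and 2 in *D. mauritiana* (adjusted p = 0.0163, held in 3 of 6). *bam* and *otu* stayed below 1 CPM in all group means, and *ovo*, which has a role in the epidermis too, was at 66.4 to 130 CPM. *Phf7* was at 5.90 to 9.92 CPM in the group means and was not called, and *vas* and *nos* were not measured. Of the 3 glial markers, *moody* was higher in *D. melanogaster*, at 21.3, 23.2 and 23.3 CPM, against 13.8, 14.8 and 13.8 CPM in *D. mauritiana* (log2-fold change 0.68, adjusted p = 0.0196, held in 2 of 6). The others, *repo* (-0.12, adjusted p = 0.648) and *Gs2* (0.05, adjusted p = 0.933), were not called in that edgeR test. The muscle genes called in *D. simulans* were *Mhc*, *Mlc2*, *up* and *Tm2*, with log2-fold changes of 1.66, 1.01, 0.57 and 0.81. The call of *up* held in 3 of 6 fits that left out 1 library (adjusted p of 0.0504 to 0.0566 without *D. mauritiana* F, *D. simulans* A or *D. simulans* C), and those of the other 3 genes held in all 6.

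For each called member, the genes most alike were sought by Pearson's r of log2 CPM over the 12 libraries, centred on the *D. mauritiana* libraries of the same read type, among the 8344 genes that averaged 50 counts or more. For *tra* these were *CG14427* (r = 0.984), *Boh1* (0.983) and *Nipsnap* (0.983). *msl-2* was most like *CG34106* (0.945), *CG6845* (0.936) and *Lrrk* (0.935). *mle* was most like *CG5877* (0.981), *orb2* (0.976) and *Strump* (0.972). The nearest gene to *mof* was *14-3-3zeta* (0.951), and the next carried identifiers without a symbol. The points share their libraries and the centring, and the correlations describe the profiles only.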

How the data were processed

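Female eye-antennal discs of the 3 species gave 12 libraries. The authors deposited whole-number counts of reads per gene, without normalization, in tables for the published, direct and reciprocal annotations. Per the labels and the methods, untrimmed 50 bp reads were mapped with Bowtie2 to each species' own coding sequences (longest isoform, no untranslated regions) and summed with SAMtools 0.1.19. Use of strand is not given in the sources used here. Low base quality was noted for replicate C of *D. simulans* and for 3 *D. mauritiana* replicates (A, D, E).

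The reciprocal tables were tested with the quasi-likelihood test of edgeR 4.0.16 (R 4.3.3, TMM, filterByExpr), within 1 read type, with Benjamini-Hochberg adjustment over all genes and a threshold of 0.05. Contrasts across tables used all 12 libraries and 13311 common genes. Standard errors are the log2-fold change over the root of F, and intervals cover 95%. CPM use TMM-scaled totals. RPKM divide CPM by the model length in kilobases. Alternatives were DESeq2 1.42.0, limma 3.58.1 on log2(RPKM + 1), other scalings, filters, annotations, a length offset, a replicate block and leaving out each library. The test code was checked on simulated counts.

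The members and lists were chosen with earlier results of these data known. The rule for named genes was to give all 10 members in each comparison and, of the other lists, those genes called in a species comparison or described beside a member. Symbols were paired with 13065 of 13331 identifiers, and 79 of 96 other listed genes were found in both tables. Isoforms come from the Ensembl annotation of *D. melanogaster*, which is not the release of the authors' models, matched by coding length. No per-sample column was left out. Sequences were not used here. A result for 1 listed gene is not reported here.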

Additional observations from a re-analysis of the deposited data

Results flagged for a closer look

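The difference from *D. mauritiana* was compared between *D. melanogaster* and *D. simulans* by the edgeR test over the 12 libraries. Among the members and the 79 other listed genes counted in both comparisons, 5 were called, beside 1636 of all 11287 genes (14.5%). Each of the 5 was also called in a species comparison of the same libraries, so these calls are not independent. The difference in *D. melanogaster* minus that in *D. simulans* was -1.09 on the log2 scale for *tra* (SE 0.22, adjusted p = 0.0067). It was 0.69 for *snf* (adjusted p = 0.0145) and 0.65 for *Rcd5* (adjusted p = 0.0288). For *dmrt99B* it was -1.47 (adjusted p = 0.00503), with lower levels in both species than in *D. mauritiana*. For *Yp3* it was -8.47 (SE 0.47, adjusted p = 7.87e-07), with a lower level in *D. melanogaster* and a higher level in *D. simulans* than in *D. mauritiana*. Read type differs between the comparisons, and its part in these values was not tested.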

How the results depend on the processing

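In *D. melanogaster* against *D. mauritiana*, 1 member was called, beside 1775 of all 9767 genes. With the direct annotation 0 were called (1934 of 9825 genes), and 2 without *D. melanogaster* B and *D. mauritiana* A together (1619 of 9901). When each library was left out, 0 to 3 were called, beside 849 of 10060 to 1913 of 10002 genes. In *D. simulans* against *D. mauritiana*, 3 were called, beside 2790 of all 11121 genes. With the direct annotation 5 were called (3061 of 11130 genes), and 1 with all 12 libraries in the fit (1752 of 11287). When each library was left out, 0 to 3 were called, beside 1633 of 11312 to 2673 of 11349 genes. The test of the difference between these comparisons called 1 member (1636 of 11287 genes), and 1 to 4 with a library left out (1202 to 2110 genes). The paired-end against single-end comparison called 9 (5426 of 11287 genes), and 8 to 9 with a library left out (3846 to 6015 genes). Without the 4 libraries with low base quality, a setting chosen after seeing the data, *D. mauritiana* F was the only paired-end library left of that species. Calls from that fit in the 3 comparisons that use the paired-end libraries therefore say nothing about the members.

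Replicate letters did not pair the libraries, since deviations of same-letter libraries correlated at -0.30, 0.22 and 0.22. With the replicate block the count remained 1 and *tra* was at -0.86 (adjusted p = 0.0249).

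Signs changed for values that were not called in the main test. In *D. melanogaster*, *bab2* was 0.0226 with limma, *tra2* was 0.0396 with the published annotation and 0.0231 with its length offset, *msl-1* was 0.0037 with that offset, and *msl-2* was -0.14 without *D. melanogaster* B and *D. mauritiana* A and -0.0053 without the 4 libraries. *Sxl* was fitted at 15.27 and 14.83 with the published annotation without and with the offset, against 0 counts in *D. mauritiana*, which gives no bound. In *D. simulans*, *Rcd5* was -0.0212 with limma, -0.0248 with library sums and -0.16 without the 4 libraries, *snf* was -0.0552 without them, and *msl-1* was 0.0026 with all 12 libraries. With 1 library left out, the ranges in *D. melanogaster* were -0.19 to 0.13 for *Sxl*, -0.21 to 0.17 for *msl-1*, -0.0174 to 0.28 for *msl-2* and -0.35 to 0.33 for *bab2*. In *D. simulans* they were -0.0462 to 0.0612 for *msl-1*, -0.11 to 0.0145 for *msl-3*, -0.0265 to 0.11 for *snf* and -0.0503 to 0.10 for *Rcd5*. For the difference between the comparisons they were -0.25 to 0.0744 for *Sxl*, -0.0125 to 0.18 for *tra2*, -0.22 to 0.17 for *msl-1* and -0.0563 to 0.38 for *mof*.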
